A study of Mus musculus with 6 samples.

Results

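The nuclear genes for the subunits of the respiratory chain and the ATP synthase were followed in oligodendrocyte progenitor cells exposed to hemin. Members were taken by mouse symbol, as every gene whose name begins with Ndufa, Ndufb, Ndufc, Ndufs or Ndufv and a number, the genes Sdha to Sdhd, and every name beginning with Uqcr, Cox4 to Cox8 or Atp5. The rule found 84 genes among the 18749 listed in the 6 libraries, 38 for complex I, 4 for complex II, 8 for complex III, 17 for complex IV and 17 for complex V, and 83 of them are protein-coding. The cells were wild-type C57BL/6 OPCs, the glial precursors of myelinating oligodendrocytes, pulled from cortices of newborn pups (postnatal day 1 by the sample labels) with beads against CD140a and expanded for 3 days. The hemin group had 3 libraries from cultures given 50 µM hemin, the oxidised form of heme, for 12 h, and the vehicle group had 3 libraries from cultures given 0.25% DMSO for 12 h. The title of the series names ferroptosis, an iron-dependent form of cell death, in these cells after haemorrhagic stroke. The labels do not state that replicates are separate cultures or litters, so each p-value rests on sample-to-sample spread that may be technical.

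Complexes I to IV sit in the inner mitochondrial membrane and pass electrons from NADH and succinate to oxygen, while complexes I, III and IV pump protons. Complex V uses the proton gradient to make ATP. Most subunits are encoded in the nucleus and imported, the rest in the mitochondrial genome, and several carry heme or iron-sulfur clusters. In oligodendrocyte progenitors, respiration supplies ATP for growth and differentiation, and the chain is also a source of superoxide.

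Expected counts over annotated genes summed to 6463460 to 6523639 in the hemin libraries and 6339966 to 6390691 in the vehicle libraries. Hmox1, the heme-degrading oxygenase that hemin induces, lay at 2298.4 to 3044.8 FPKM (fragments scaled by transcript length and library size) with hemin and 15.8 to 28.7 FPKM with vehicle. The OPC markers Pdgfra, Cspg4, Olig1, Olig2, Sox10, Gpr17, Ptprz1, Lhfpl3, Vcan and Tnr were all detected and summed to 410 to 620 FPKM with hemin and 1228 to 1488 FPKM with vehicle, with 8 of 10 lower. Neuron markers summed to 86.4 to 120 FPKM with hemin and 134 to 169 FPKM with vehicle (1 of 10 higher, 3 lower), and astrocyte markers to 342 to 423 FPKM with hemin and 417 to 472 FPKM with vehicle (1 of 8 higher, 4 lower). Markers of differentiating oligodendrocytes summed to 27.4 to 40.2 FPKM with hemin and 35.1 to 59.4 FPKM with vehicle (1 of 5 tested lower). Microglial markers summed to 35.4 to 40.6 FPKM with hemin and 12.4 to 21.6 FPKM with vehicle (2 of 7 tested higher), and endothelial markers to 5.25 to 6.74 FPKM with hemin and 1.58 to 2.37 FPKM with vehicle (3 of 4 tested higher). Muscle markers summed to 14.7 to 17.9 FPKM with hemin and 0.420 to 1.10 FPKM with vehicle (4 of 4 tested higher, with Myod1 the most abundant). Pericyte and fibroblast markers summed to 5.75 to 16.9 FPKM with hemin and 4.04 to 9.29 FPKM with vehicle, with none of 5 tested called. Markers at 0 in at least 2 vehicle libraries were Mobp, Myod1, Myog, Tnnt2, Tnnc1, Tmem119, P2ry12 and Cldn5, and Myog and Tnnt2 were also at 0 in hemin replicate 1. Low-count genes were filtered by group, so a marker near 0 with vehicle could be tested only through its hemin libraries. For such markers, as in the muscle and endothelial lists, a call of higher was largely fixed by that filter. Of all tested genes 16.2% were called higher and 15.7% lower. In bulk RNA, fewer cells of a type and less RNA per cell cannot be told apart, and the part of these marker levels in the results that follow was not tested.

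In the fit of all libraries few of the respiratory chain genes were called, and most of those called differed by small amounts. Of 77 members tested, 10 rose, 2 fell and 65 did not pass, at an adjusted p below 0.05 in edgeR's quasi-likelihood test with Benjamini-Hochberg adjustment over all 12782 genes tested. The members called make up 15.6% of those tested, against 31.9% of all tested genes, with 16.2% of all genes called higher and 15.7% called lower. The 10 that rose did so 1.22-fold to 1.41-fold, and the largest fall among the called members was 1.82-fold, in Sdhd. The members' median log2 fold change was 0.15, against 0.00 over all tested genes, and it was -0.02 with quantile-normalized values. With libraries scaled by their totals alone, 3 members were called higher and 4 lower (1714 and 2582 of all genes), and with quantile normalization 0 and 14, beside 17.1% of all genes called lower by that method. Without hemin replicate 1, 27 members were called higher and 2 lower, beside 17% of all genes called higher in that fit. All 3 hemin libraries exceeded all 3 vehicle libraries in FPKM for 15 members, the 10 called ones among them, beside 21.5% of all tested genes. All 3 hemin libraries lay below for 8 members, 2 of them called, beside 27.5% of all tested genes.

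These genes were abundant, and most estimates were narrow. The median level of the tested members was 104.7 FPKM, against 7.49 FPKM over all tested genes, and 74 of the 77 averaged at least 10 FPKM. The standard error of a member's log2 fold change ran from 0.078 to 0.611 with a median of 0.117. For 45 members the 95% interval stayed inside a 1.5-fold change in either direction, 41 of which were not called. For the other 24 members not called the interval reached beyond 1.5-fold, and no statement on a change of that size can be made for them. The 7 members with too few counts to test were Ndufa4l2, Ndufs5-ps, Cox4i2, Cox6a2, Cox7a1, Cox7b2 and Cox8b, none above 5.63 FPKM in any library.

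**Figure D1:**
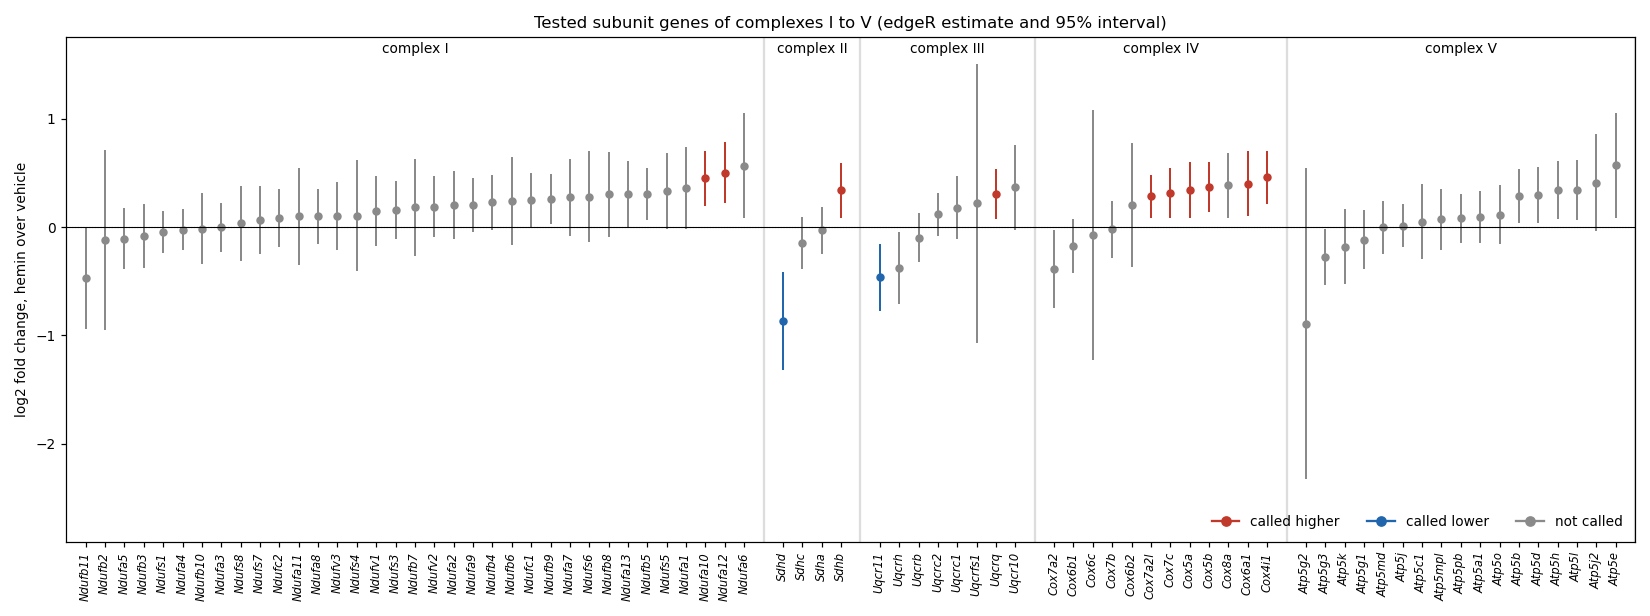
Log2 fold change (hemin over vehicle) of the tested subunit genes, grouped by complex, with 1 gene of complex I left out, and ordered by value within each complex. Points are edgeR estimates from 3 libraries per group and bars are 95% intervals. The 10 genes called higher are red and the 2 called lower blue, and the widest intervals belong to Atp5g2, Uqcrfs1 and Cox6c.

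Complex I, which takes electrons from NADH, had 2 of 36 tested genes called, both higher (5.56%, beside 16.2% of all tested genes). Its median log2 fold change was 0.18. Ndufa12, an accessory subunit of the peripheral arm, stood at 153, 172 and 201 FPKM in hemin replicates 1 to 3, against 125, 125 and 138 FPKM in vehicle replicates 1 to 3. The lowest hemin library was above the highest vehicle library, and the log2 fold change was 0.50 ± 0.12 (SE, edgeR adjusted p = 0.0163). Ndufa12 has 1 near-identical pseudogene copy, and its counts were whole in every library. Whole counts cannot show whether reads of the copy were credited to the gene, because the annotation used for the deposited counts is not known. Ndufa10, an accessory subunit of the proton-pumping arm, stood at 96.6, 126 and 118 FPKM with hemin and 83.8, 86.9 and 88.4 FPKM with vehicle, with no overlap between groups (log2 fold change 0.45 ± 0.11, edgeR adjusted p = 0.0163).

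None of the 7 nuclear genes of the catalytic core of complex I, which holds the flavin and the iron-sulfur clusters, passed edgeR's test. Of all tested genes 31.9% passed it. Of the 7 core genes 0 had an unadjusted p under 0.05. DESeq2 and limma called none of them either in the fits of all libraries, and their median log2 fold change was 0.15. Ndufs1, the large iron-sulfur subunit, averaged 45.7 ± 2.41 FPKM with hemin and 49.0 ± 2.03 FPKM with vehicle (SD, n = 3 each), a log2 fold change of -0.05 with a 95% interval from -0.23 to 0.14. Ndufv1, which binds NADH, averaged 48.0 ± 9.24 FPKM with hemin and 44.8 ± 2.00 FPKM with vehicle, and Ndufv2, its partner, 73.9 ± 12.2 FPKM with hemin and 67.2 ± 3.02 FPKM with vehicle. Ndufs7 and Ndufs8, which carry the clusters nearest to ubiquinone, had log2 fold changes of 0.07 ± 0.13 and 0.04 ± 0.14 (SE). In each of the 7 core genes hemin replicate 1 was the lowest of the hemin libraries.

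Of 28 accessory genes of complex I, 26 did not pass, and their values, which ran from -0.47 to 0.56 on the log2 scale, included some close to the threshold. Ndufb5 stood at 75.1, 85.1 and 93.7 FPKM with hemin and 73.8, 69.2 and 70.3 FPKM with vehicle, without overlap (log2 fold change 0.31 ± 0.10, edgeR adjusted p = 0.0515). Ndufb11 stood at 27.0, 40.2 and 50.1 FPKM with hemin and 55.8, 55.5 and 57.1 FPKM with vehicle (log2 fold change -0.47 ± 0.20, edgeR adjusted p = 0.109). All hemin libraries were below all vehicle libraries for Ndufb11, but they differed among themselves by more than the vehicle libraries did. Ndufb11 has 1 pseudogene copy and counts that were not whole, and it shares 117 exonic bases with Rbm10 on the opposite strand. Ndufa4, which the symbol rule places in complex I although the protein is now known as a subunit of complex IV, averaged 524 ± 15.6 FPKM with hemin and 560 ± 19.9 FPKM with vehicle. Its log2 fold change of -0.02 had the smallest standard error of all members (95% interval from -0.21 to 0.16). Ndufa6, a matrix-side accessory subunit, had the highest estimate in the complex, at 40.0, 54.7 and 71.8 FPKM with hemin and 39.3, 40.1 and 38.0 FPKM with vehicle, and did not pass (log2 fold change 0.56 ± 0.20, edgeR adjusted p = 0.0714). Ndufs4 and Ndufa11, also accessory subunits, were the only tested genes of the complex averaging under 10 FPKM, and Ndufb2, just above, had a standard error of 0.35. The paralogue of Ndufa4, Ndufa4l2, induced by low oxygen in other cells, was at 0.130 FPKM in every hemin library and at 0 to 0.130 FPKM with vehicle.

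**Figure D2:**
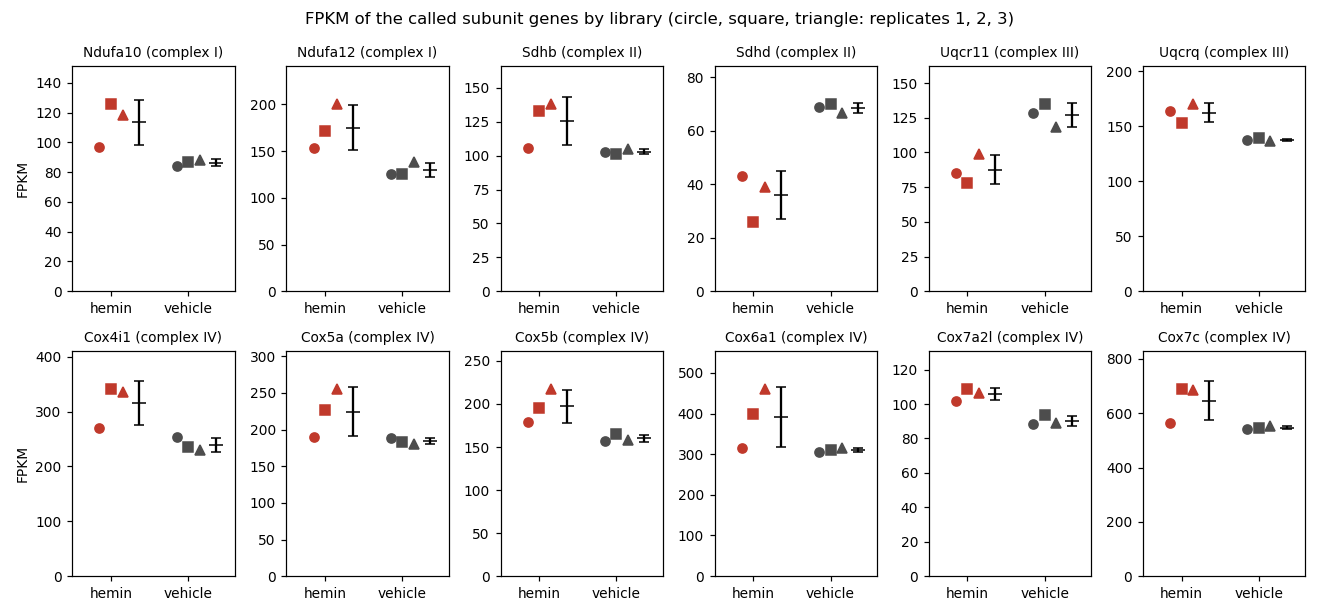
FPKM of the 12 called subunit genes in each library, hemin left of vehicle, with the mean and SD of 3 libraries as bars. Sdhd and Uqcr11 are lower with hemin, the other 10 are higher, and in Cox5a, Cox6a1 and Sdhb the hemin circle (replicate 1) lies within a few FPKM of the vehicle libraries.

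Complex II, succinate dehydrogenase, links the tricarboxylic acid cycle to the chain and consists only of nuclear-encoded subunits. Its genes moved apart. Sdhd, a membrane anchor that helps hold heme b and the ubiquinone site, stood at 43.2, 25.9 and 39.2 FPKM with hemin, against 69.1, 70.1 and 66.6 FPKM with vehicle. Every hemin library was far below every vehicle library, and the log2 fold change was -0.87 ± 0.19 (SE, 95% interval from -1.31 to -0.42, edgeR adjusted p = 0.0126). Sdhd kept its call in all 17 alternative settings, with log2 fold changes from -1.05 to -0.67.

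Sdhb, the iron-sulfur subunit, stood at 105, 133 and 138 FPKM with hemin and 103, 101 and 105 FPKM with vehicle. Hemin replicate 1 was only just above the vehicle libraries, the other hemin libraries were well above them, and the log2 fold change was 0.34 ± 0.11 (edgeR adjusted p = 0.0444). The call of Sdhb was kept in 4 of the 17 alternatives. Sdha, the flavoprotein that oxidises succinate, averaged 81.5 ± 8.43 FPKM with hemin and 86.3 ± 4.73 FPKM with vehicle, and Sdhc, the other anchor, 97.1 ± 10.7 FPKM with hemin and 112 ± 4.00 FPKM with vehicle. Their log2 fold changes of -0.03 ± 0.09 and -0.15 ± 0.10 did not pass.

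The ratio of Sdhd to Sdhb in FPKM was 0.410, 0.195 and 0.283 in hemin replicates 1 to 3, against 0.671, 0.691 and 0.636 in vehicle replicates 1 to 3. The ratio of Sdhc to Sdhb was 0.888, 0.665 and 0.790 with hemin, against 1.13, 1.07 and 1.07 with vehicle. Both ratios to the iron-sulfur subunit were lower in every hemin library than in any vehicle library. For Sdhd this had to be so, because Sdhd and Sdhb each separated the groups, in opposite directions. Sdhc alone overlapped between groups, so its ratio was lower partly through the higher Sdhb.

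Sdhd is transcribed head to head with Timm8b, a small chaperone of protein import, and 51 bases separate their annotated starts. Timm8b stood at 59.3, 67.7 and 77.6 FPKM with hemin and 74.9, 76.8 and 78.5 FPKM with vehicle, overlapping groups with a log2 fold change of -0.10 ± 0.13 (edgeR adjusted p = 0.575). The 51 bases are shown because the neighbours share them, and the promoter of Sdhb because it belongs to the same complex and differed in direction. Sequences are from RefSeq on GRCm38.p6, 5′ to 3′ on the strand of the gene, chr9:50603850-50603900 on the minus strand for Sdhd and chr4:140961071-140961270 on the plus strand for Sdhb. Capitals mark CCGGAAG, the core bound by ETS factors such as GABPA, on either strand.
Sdhd: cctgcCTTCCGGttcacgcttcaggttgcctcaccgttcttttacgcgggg
Sdhb: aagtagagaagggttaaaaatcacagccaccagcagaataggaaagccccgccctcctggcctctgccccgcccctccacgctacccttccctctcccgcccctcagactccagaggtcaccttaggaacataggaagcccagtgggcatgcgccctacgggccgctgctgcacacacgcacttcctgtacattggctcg
The core occurs within the 51 bases beside Sdhd and not in these letters of Sdhb. It was found within 250 bases before the start in 12 of 65 tested members with a sequence (18.5%), in 15.3% of tested genes and in 7.83% of all genes of the table.

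Complex III, which passes electrons from ubiquinol to cytochrome c, had 1 gene called in each direction among 8. Each is 12.5%, beside 16.2% of all tested genes called higher and 15.7% called lower. Uqcr11, a small accessory subunit, stood at 85.3, 78.3 and 99.0 FPKM with hemin, against 129, 135 and 118 FPKM with vehicle. The hemin libraries were all lower, and the log2 fold change was -0.46 ± 0.13 (SE, edgeR adjusted p = 0.0296), a call kept in 12 of 17 alternatives. Uqcrq, a ubiquinone-binding small subunit, stood at 163, 153 and 170 FPKM with hemin and 137, 139 and 137 FPKM with vehicle, all higher (log2 fold change 0.31 ± 0.10, edgeR adjusted p = 0.0457), and kept its call in 4 of 17.

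The ratio of Uqcr11 to Uqcrq was 0.522, 0.512 and 0.581 with hemin, against 0.936, 0.972 and 0.862 with vehicle. Its groups could not overlap, because each gene alone already separated them, in opposite directions, so the ratio adds no further result. Uqcrh, the acidic hinge protein, stood at 139, 127 and 175 FPKM with hemin and 196, 222 and 181 FPKM with vehicle. Every hemin library was lower for Uqcrh, but the log2 fold change of -0.38 ± 0.14 did not pass (edgeR adjusted p = 0.0736). Uqcrb, another small subunit with 3 pseudogene copies, averaged 305 ± 6.35 FPKM with hemin and 343 ± 27.4 FPKM with vehicle (log2 fold change -0.10 ± 0.09).

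The large subunits of complex III among the members did not pass the test. Cyc1, the cytochrome c1 subunit, does not match the symbol rule and was listed with the electron carriers (log2 fold change 0.18 ± 0.14, SE, not called). The core proteins Uqcrc1 and Uqcrc2 had log2 fold changes of 0.18 ± 0.12 and 0.12 ± 0.08 (SE). Uqcrc1 averaged 110 ± 20.0 FPKM with hemin and 100.5 ± 2.22 FPKM with vehicle, and Uqcrc2 113 ± 7.05 FPKM with hemin and 109 ± 5.30 FPKM with vehicle (SD, n = 3 each). Uqcrfs1, the Rieske iron-sulfur protein, was listed at 0.890 to 2.64 FPKM with hemin and 0.890 to 2.65 FPKM with vehicle, far below its partners. Its counts were not whole and its standard error was 0.55, so a change could not be shown at counts this low.

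Complex IV, cytochrome c oxidase, reduces oxygen at a heme and copper centre. It held 6 of the 10 members called higher, which is 50% of its 12 tested genes, beside 16.2% of all tested genes. None was called lower by edgeR, beside 15.7% of all tested genes. At an unadjusted p under 0.05 1 was lower, a threshold at which the share of all genes was not taken. DESeq2 called 7 higher and 0 lower there, beside 2180 higher and 2051 lower of all 12782 genes. With limma on log2(FPKM + 1) 2 were higher and 1 lower, beside 1887 and 2374 of all genes. With quantile normalization 0 were called higher and 2 lower, Cox6b1 and Cox7a2, beside 1954 and 2192 of all genes. The 12 tested genes of complex IV had a median log2 fold change of 0.30, which was 0.089 with quantile normalization, and whether that differs from the other complexes was not tested. Cox4i1, the largest of its nuclear-encoded subunits, stood at 270, 342 and 336 FPKM with hemin, against 253, 235 and 229 FPKM with vehicle. All hemin libraries were above all vehicle libraries, and the log2 fold change was 0.46 ± 0.10 (SE, edgeR adjusted p = 0.0127), kept in 13 of 17 alternatives. Cox4i1 shares 154 exonic bases with Emc8 on the opposite strand, strandedness of the libraries being not given in the sources used here. Emc8, a subunit of the complex that inserts proteins into the endoplasmic reticulum membrane, was lower, at 7.65 ± 0.45 FPKM with hemin and 14.2 ± 1.84 FPKM with vehicle (log2 fold change -0.84 ± 0.13, edgeR adjusted p = 0.00335).

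Cox5b, a zinc-binding subunit facing the matrix, stood at 179, 195 and 218 FPKM with hemin and 157, 165 and 158 FPKM with vehicle, without overlap (log2 fold change 0.37 ± 0.09, edgeR adjusted p = 0.0213). Cox5a, its neighbour in the matrix domain, stood at 189, 227 and 256 FPKM with hemin and 189, 183 and 180 FPKM with vehicle (log2 fold change 0.34 ± 0.11, edgeR adjusted p = 0.0453). Hemin replicate 1 of Cox5a exceeded the highest vehicle library by less than 1 FPKM, and 145 of its exonic bases overlap a noncoding gene on the other strand. Cox6a1, the ubiquitous form of a subunit at the dimer interface, stood at 315, 399 and 461 FPKM with hemin and 306, 310 and 315 FPKM with vehicle, again with replicate 1 level with the vehicle libraries (log2 fold change 0.40 ± 0.13, edgeR adjusted p = 0.0458).

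Cox7c, a small membrane subunit with a near-identical copy and counts that were not whole, stood at 563, 690 and 686 FPKM with hemin and 542, 547 and 551 FPKM with vehicle (log2 fold change 0.31 ± 0.09, edgeR adjusted p = 0.0387). Its direction reversed with quantile normalization, to -0.14. Cox7a2l, known for joining complexes III and IV into supercomplexes, had hemin libraries close together, at 102, 109 and 107 FPKM, against 88.7, 93.7 and 88.8 FPKM with vehicle (log2 fold change 0.28 ± 0.08, edgeR adjusted p = 0.0332). The calls of Cox5b, Cox7c and Cox7a2l held in 8, 5 and 5 of 17 alternatives, and those of Cox5a and Cox6a1 in 4 each. Cox8a, a small subunit close to the catalytic core, stood at 410, 546 and 587 FPKM with hemin and 431, 403 and 402 FPKM with vehicle, with hemin replicate 1 inside the vehicle range and the other hemin libraries above it (log2 fold change 0.38 ± 0.13, edgeR adjusted p = 0.0513).

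The other ubiquitous subunits of complex IV had values near or below 0. Cox7a2, the ubiquitous partner of the muscle form Cox7a1, stood at 51.3, 56.4 and 76.5 FPKM with hemin and 80.2, 84.7 and 86.0 FPKM with vehicle. Every hemin library was lower, but the log2 fold change of -0.39 ± 0.15 did not pass (edgeR adjusted p = 0.0863). Cox6b1, which caps the intermembrane face of the dimer, averaged 296 ± 34.6 FPKM with hemin and 351 ± 9.33 FPKM with vehicle, and Cox7b, a small membrane subunit, 82.1 ± 10.4 FPKM with hemin and 86.4 ± 6.90 FPKM with vehicle. Cox6c, another small membrane subunit, ranged from 24.2 to 38.3 FPKM with hemin and from 11.4 to 54.1 FPKM with vehicle, and its log2 fold change of -0.07 ± 0.49 had a 95% interval from -1.22 to 1.07. The counts of Cox6c and of Cox7a2 were not whole, and how reads were assigned to these genes was not tested.

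Tissue-restricted isoforms of complex IV stayed low in both groups. Cox4i2, the lung form that replaces Cox4i1 in low oxygen, was listed at 0, 0.370 and 0.940 FPKM with hemin and 0.370, 0.370 and 0.740 FPKM with vehicle. The heart and muscle forms Cox6a2, Cox7a1 and Cox8b reached at most 1.61, 5.63 and 0.450 FPKM with hemin and 0.410, 2.21 and 0.460 FPKM with vehicle. Cox7b2 was at 0 in all hemin libraries and reached 0.260 FPKM in 1 vehicle library. The testis form Cox6b2 was the exception, at 27.5 ± 3.91 FPKM with hemin and 25.3 ± 7.37 FPKM with vehicle, with a log2 fold change of 0.21 ± 0.24.

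The promoters of Uqcr11 and Cox6a1 are shown because they are the other called genes in which a searched motif was found, Uqcr11 lower and Cox6a1 higher. Uqcr11 lies on the minus strand at chr10:80406822-80407021 and Cox6a1 on the minus strand at chr5:115348959-115349158, from RefSeq on GRCm38.p6. Capitals mark CCGGAAG and, in Cox6a1 only, the NRF1 palindrome, GCGCA and GCGC with any base between them, both searched on both strands.
Uqcr11: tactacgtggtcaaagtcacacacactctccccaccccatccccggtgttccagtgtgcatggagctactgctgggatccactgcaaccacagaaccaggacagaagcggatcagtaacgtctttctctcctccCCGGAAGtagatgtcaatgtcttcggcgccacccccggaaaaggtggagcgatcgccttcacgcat
Cox6a1: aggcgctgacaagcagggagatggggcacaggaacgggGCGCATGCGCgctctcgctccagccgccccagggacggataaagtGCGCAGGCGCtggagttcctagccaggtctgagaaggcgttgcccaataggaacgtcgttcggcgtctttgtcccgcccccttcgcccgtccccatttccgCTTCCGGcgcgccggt
The NRF1 palindrome occurs in 13 of 65 tested members with a sequence (20%), in 9.42% of tested genes and in 4.23% of all genes of the table. Among the called members it was found for Cox6a1 and also for Sdhd, though not within the 51 bases shown for Sdhd. Of the other motifs searched, that of YY1 was found in 1 of 65 tested members and 2.36% of tested genes, and the antioxidant response element in 6 of 65 and 14.1%. Of the 12 called members 10 had a sequence there, and of these Sdhd, Uqcr11 and Cox6a1 held at least 1 of the 4 motifs. A match is a run of letters and not a measured binding site.

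Complex V, the ATP synthase, had 0 of 17 genes called in either direction by edgeR, beside 31.9% of all tested genes. Its median log2 fold change of 0.08 was -0.01 with library totals alone and -0.18 with quantile normalization. At an unadjusted p under 0.05, 5 were higher and 1 lower, a threshold at which the share of all genes was not taken. DESeq2 called 3 higher (Atp5b, Atp5h and Atp5l), beside 2180 of all 12782 genes. With limma on log2(FPKM + 1) 1 was lower (Atp5g3), beside 2374 of all 12782 genes. Atp5b, the catalytic beta subunit and the most abundant member, stood at 735, 948 and 966 FPKM with hemin and 778, 744 and 728 FPKM with vehicle (log2 fold change 0.29 ± 0.10, edgeR adjusted p = 0.0732). Hemin replicate 1 lay within the vehicle range and the other hemin libraries above it. Atp5a1, the alpha subunit, averaged 386 ± 54.5 FPKM with hemin and 374 ± 8.88 FPKM with vehicle, and Atp5c1, the rotating gamma subunit, 181 ± 38.5 FPKM with hemin and 182 ± 11.6 FPKM with vehicle. Atp5e, the small epsilon subunit of the central stalk, had the largest positive value of all members, at 64.3, 85.1 and 114 FPKM with hemin and 62.3, 61.9 and 62.5 FPKM with vehicle. All its hemin libraries were higher, yet the log2 fold change of 0.57 ± 0.20 did not pass (edgeR adjusted p = 0.0691).

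The peripheral stalk, which keeps the head from turning, had 4 genes with a median log2 fold change of 0.10. Atp5h, its d subunit, stood at 376, 497 and 472 FPKM with hemin and 347, 389 and 374 FPKM with vehicle, with hemin replicate 1 inside the vehicle range (log2 fold change 0.34 ± 0.11, edgeR adjusted p = 0.0525). Atp5pb, Atp5j and Atp5o, the other stalk subunits, had log2 fold changes of 0.08 ± 0.09, 0.01 ± 0.08 and 0.11 ± 0.11. Among the other membrane subunits, Atp5l, which takes part in dimer formation, stood at 330, 427 and 441 FPKM with hemin and 312, 342 and 336 FPKM with vehicle, and did not pass (log2 fold change 0.34 ± 0.11, edgeR adjusted p = 0.0558). Atp5h has 3 near-identical copies and counts that were whole in every library, which does not show whether reads of the copies were included. Atp5l has 9 and counts that were not whole, so its reads could have been split.

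The 3 genes for subunit c, the ring that turns with proton flow, encode the same mature protein, and all had negative values that did not pass. Atp5g1 averaged 115 ± 16.6 FPKM with hemin and 130 ± 4.40 FPKM with vehicle, and Atp5g3 124 ± 16.6 FPKM with hemin and 157 ± 6.73 FPKM with vehicle. All 3 hemin libraries of Atp5g3 were below the vehicle libraries (log2 fold change -0.28 ± 0.11, edgeR adjusted p = 0.0842). Atp5g2 stood at 85.0, 13.6 and 40.7 FPKM with hemin and 119, 47.3 and 107 FPKM with vehicle. It has 2 pseudogene copies and non-whole counts, and its log2 fold change of -0.89 ± 0.61 spans a 95% interval from -2.32 to 0.53. Summed over the 3 genes, subunit c stood at 304, 235 and 318 FPKM with hemin and 406, 337 and 391 FPKM with vehicle, while the 5 genes of the head and central stalk summed to 1401, 1798 and 1903 FPKM with hemin and 1528, 1524 and 1465 FPKM with vehicle. The sums for subunit c did not overlap, and those for the head did. The inhibitor of the synthase, Atpif1, was sparse, at 0.390, 3.98 and 2.82 FPKM with hemin and 2.37, 2.36 and 1.18 FPKM with vehicle (log2 fold change 0.32 ± 0.68).

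The hemin libraries differed among themselves in these genes. Hemin replicate 1 was the lowest of the 3 hemin libraries for 58 of 77 members (75.3%), against 36.3% of all tested genes. The median deviation of the members from the vehicle mean, in log2 CPM (counts scaled by library size), was -0.01, 0.18 and 0.30 in hemin replicates 1 to 3, while that of all tested genes was 0.00 to 0.01 in each. By complex the medians in those 3 libraries were -0.02, 0.19 and 0.32 for complex I, -0.15, -0.13 and 0.01 for complex II, -0.05, 0.14 and 0.26 for complex III, 0.15, 0.33 and 0.39 for complex IV, and -0.01, 0.14 and 0.19 for complex V. Hemin replicate 1 therefore stood level with the vehicle libraries except in complex IV, where it was above them, and in complex II, where hemin replicates 1 and 2 were below. In 22 of the 77 members hemin replicate 1 deviated in the direction opposite to hemin replicates 2 and 3. The same count was not taken over all tested genes, so it cannot be read as particular to the members.

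Without hemin replicate 1, 27 members were called higher and 2 lower, beside 17% of all genes called higher in that fit, and 9 of the 10 earlier rises were among the 27. They included 12 genes of complex I (Ndufv2 of the core among them), 7 of complex IV and 6 of complex V, with Atp5b and Atp5e. Sdhd and Uqcr11 were the 2 called lower. Without vehicle replicate 2 no member was called higher and only 1 was called lower, at 2552 genes called over all. Hspd1, the mitochondrial chaperonin induced by misfolded proteins in the matrix, was highest in hemin replicate 1, at 660, 454 and 274 FPKM in hemin replicates 1 to 3, against 220, 228 and 223 FPKM with vehicle.

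**Figure D3:**
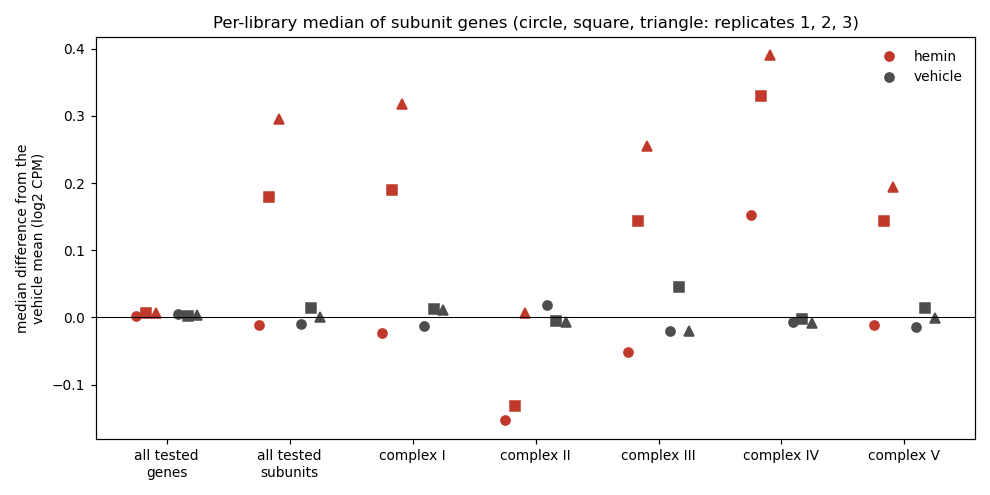
Median difference of the tested subunit genes from their vehicle mean (log2 CPM) in each library, hemin red and vehicle grey, for all tested genes, all tested subunits and each complex. Hemin replicate 1 (circle) sits near 0 for the subunits as a whole at -0.01, hemin replicate 3 (triangle) at 0.30, and the vehicle libraries stay within 0.05 of 0.

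Few of the factors that assemble the complexes were called. In the longest lists, those for complexes I and IV, the shares called higher and lower were both below those of all tested genes (16.2% higher, 15.7% lower). Sdhaf1, which inserts the iron-sulfur clusters into SDHB, fell to 9.62, 8.50 and 11.1 FPKM with hemin, against 20.6, 20.9 and 24.7 FPKM with vehicle (log2 fold change -1.12 ± 0.17, edgeR adjusted p = 0.00332). It was the 1 called gene of 4 in the complex II list, whose median was -0.28. In complex I assembly 0 of 17 rose and 2 fell (11.8%), Tmem186 by 1.21 and Dmac1 by 0.66 on the log2 scale. That list includes Ndufab1, itself a complex I subunit that the symbol rule does not match (log2 fold change 0.14 ± 0.28, not called). In complex III assembly 1 of 6 fell, Uqcc3 by 0.92. In complex IV assembly 3 of 24 rose (12.5%), namely Surf1 (0.87, a factor for heme a insertion), Cox18 (1.09, for membrane insertion of COX2) and Sco1 (0.67, a copper chaperone), and Coa3 fell by 0.75. The median of the complex IV list was -0.02, and 15 of its 24 values were negative. None of 5 complex V factors was called by edgeR. At an unadjusted p under 0.05 there were 2, a threshold at which the share of all genes was not taken.

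Among electron carriers and genes of coenzyme Q synthesis 1 of 17 rose, Coq10b, a binding protein for coenzyme Q, at 32.9, 37.5 and 39.9 FPKM with hemin and 13.3, 11.8 and 15.9 FPKM with vehicle (log2 fold change 1.48 ± 0.15, edgeR adjusted p = 0.000738). Cytochrome c, Cycs, stood at 61.2 ± 2.38 FPKM with hemin and 61.1 ± 0.98 FPKM with vehicle. In the tricarboxylic acid cycle list 2 of 17 rose, Pdhb by 0.30 and Idh3b by 0.26 on the log2 scale. Glycolysis had 6 of 19 called, all higher, which is 31.6% of the list beside 31.9% of all tested genes called in either direction and 16.2% called higher. Its median was 0.30, and the called genes were led by the glucose transporter Slc2a1 (log2 fold change 1.84 ± 0.11), the aldolase Aldoa (0.89 ± 0.11) and the isomerase Gpi1 (0.64 ± 0.09).

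Of 17 regulators of mitochondrial biogenesis 1 rose (5.88%) and 3 fell (17.6%), beside 16.2% of all tested genes called higher and 15.7% called lower. Polg, the mitochondrial DNA polymerase, fell by 1.37, its RNA counterpart Polrmt by 0.53 and the coactivator Ppargc1a by 0.57 on the log2 scale, while Gabpb1, a partner of GABPA, rose by 0.65. The factors that bind subunit promoters did not pass, with log2 fold changes of -0.03 for Nrf1, 0.04 for Gabpa, 0.12 for Yy1 and -0.04 for Esrra. Tfam, which packages mitochondrial DNA, did not pass either, at 0.45. Among 16 mitochondrial chaperones and proteases 5 rose, beside 16.2% of all tested genes, with Hspd1, Hspe1 and Hspa9 at log2 fold changes of 1.11, 1.06 and 1.00, and Phb fell by 0.51. Of 28 genes of protein import and cristae Tomm20 rose by 0.56 and Micos10 fell by 1.27. Of 77 mitochondrial ribosomal protein genes 10 rose (13.0%) and 9 fell (11.7%), both below the shares of all tested genes, with a median of 0.13. Mrpl41 fell by 1.22 and Mrpl18 by 1.08, and Mrpl38 rose by 0.78.

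**Figure D4:**
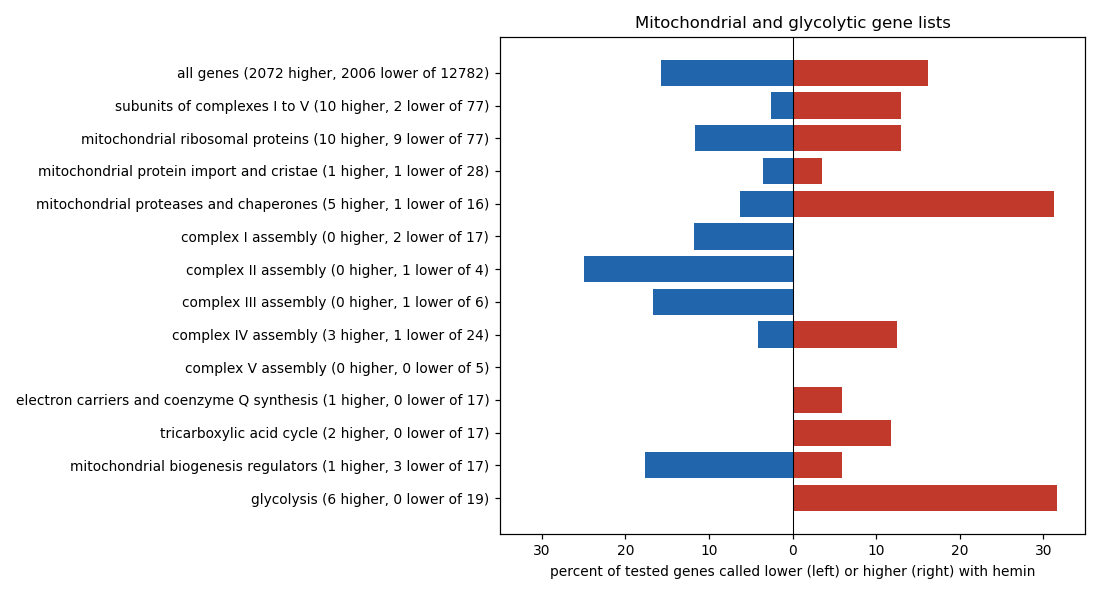
Percent of the tested genes of each list called lower (left of 0, blue) or higher (right of 0, red) with hemin by edgeR, with the counts in the labels and all genes at the top. Glycolysis and the mitochondrial chaperones have 6 of 19 and 5 of 16 genes higher, and the subunits 10 of 77 higher and 2 lower.

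Shared sequence and overlapping genes limit some of these values. At 95% identity over at least 50% of the transcript, 14 members had at least 1 near-identical copy in GENCODE vM21. Of these 14, 2 were called (14.3%), beside 31.9% of all tested genes. Among 63 tested members without a copy 8 were called higher and 2 lower (15.9% called), a share close to that of the members with a copy. An exon of another gene overlapped 28 members, 25 of them on the opposite strand, and the called ones among the 28 were Cox4i1 and Cox5a.

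**Figure D5:**
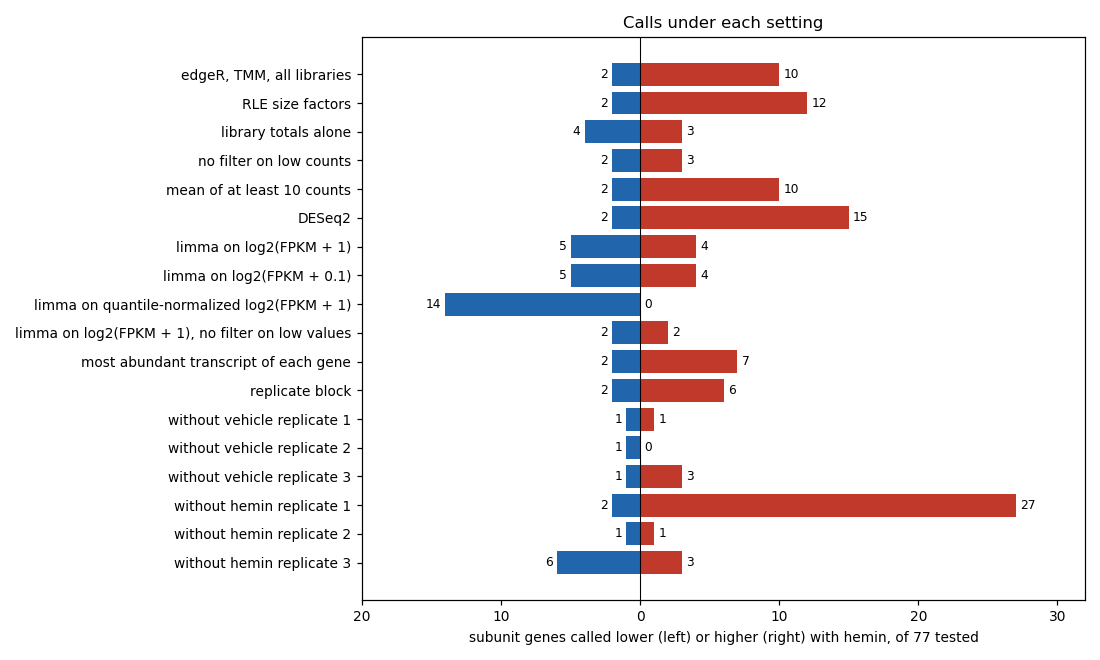
Number of subunit genes called lower (left) or higher (right) with hemin, of 77 tested, in the edgeR fit of all libraries and under each of 17 alternatives. Rises run from 0 with quantile normalization and without vehicle replicate 2 to 27 without hemin replicate 1, and falls from 1 to 14.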

How the data were processed

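RNA was sequenced in 3 hemin and 3 vehicle libraries. Per the labels' protocols, libraries for Illumina sequencing were built from PCR-amplified mRNA. The submitters' processing notes name Bowtie 0.12.2, RSEM and the builds mm8 and mm9 without roles, with annotation release and strandedness not given in the sources used here. Per the file headers, the deposited transcript tables hold expected counts, which the authors estimated per transcript and did not scale for depth. They also hold FPKM, which the authors scaled by length and library size. Tables of unannotated features were not used.

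Transcript values were summed per gene identifier. Genes absent from a table count as 0. Of 18749 genes, 18710 were matched to symbols through RefSeq (GRCm38.p6) and 39 were not. Summed expected counts were rounded. In R 4.3.3, edgeR 4.0.16 applied filterByExpr by group, TMM factors and the two-sided quasi-likelihood test of hemin against vehicle without covariates, with Benjamini-Hochberg adjustment over 12782 genes. The standard error is the log2 fold change divided by the square root of F. The biological coefficient of variation was 0.208. A count was called whole within 0.005. The 17 alternatives used DESeq2 1.42.0, limma 3.58.1 on log2 FPKM with pseudocounts of 1 and 0.1, other scalings and filters, the most abundant transcript, a replicate block and each library left out. The fit was tested on simulated data.

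The members and gene lists were chosen with earlier results of these data known. Named genes are, per complex, up to 4 called genes with the smallest p in each direction, fixed core subunits and isoform pairs, up to 3 called genes per list and direction, and fixed biogenesis regulators. Uqcrh, Ndufa6, Ndufa11, Ndufab1, Ndufb2, Ndufb5, Ndufb11, Ndufs4, Atp5e, Atp5h, Atp5j, Atp5l, Atp5o, Atp5pb, Bnip3, Pdk1, Emc8, Timm8b, Cyc1, Cycs, Hmox1 and Ndufv3 were named after their values were seen. One gene that these rules select is not reported here by name. Subunits of the mitochondrial genome were not analysed here.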

Additional observations from a re-analysis of the deposited data

How the results depend on the processing

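Counts of called members depended on scaling, filter and single libraries. With library totals alone 3 were higher and 4 lower, with no filter on low counts 3 higher, with limma on log2(FPKM + 1) or log2(FPKM + 0.1) 4 higher and 5 lower, with limma unfiltered 2 higher, and with quantile normalization 0 higher and 14 lower. Medians moved to -0.18 (complex II), 0.21 (IV) and -0.011 (V) with totals, and to -0.021 (all members), 0.050 (I), -0.28 (II), -0.054 (III), 0.089 (IV) and -0.18 (V) with quantile normalization; the cause was not tested. Leaving out 1 library gave 0 to 27 members higher, 1 to 6 lower, 2552 to 4530 genes called over all, and medians of 0.012 to 0.18 for complex V and -0.015 to 0.20 for complex III. Higher and lower members numbered 1 and 1 without vehicle replicate 1 (2598 genes over all), 0 and 1 without vehicle replicate 2 (2552), 3 and 1 without vehicle replicate 3, 27 and 2 without hemin replicate 1, 1 and 1 without hemin replicate 2, and 3 and 6 without hemin replicate 3. A fit with the replicate number as a block called 6 members higher and 2 lower, 4 and 1 of them shared with the fit without it; in complex V it called Atp5h and Atp5l higher and Atp5g2 lower (log2 fold change -1.12). Deviations of same-numbered libraries correlated at 0.065, 0.0998 and 0.158, not all above 0.1, so the numbers were not taken to pair the samples, although each library correlated best with its own number.

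Several genes not called in the fit of all libraries changed sign, some staying near 0 and others moving further. Cox7c, which was called, also changed sign. Log2 fold changes with totals alone were -0.023 for Ndufs7, -0.052 for Ndufs8, -0.040 for Atp5c1 and -0.058 for Gabpa. With log2(FPKM + 1), filtered or not, they were -0.0034 for Ndufs7, -0.031 for Ndufs8, 0.087 for Cox6c, -0.024 for Atp5c1 and -0.024 for Gabpa. With log2(FPKM + 0.1) they were -0.0036, -0.031, 0.10, -0.024 and -0.026 in the same genes and -0.14 for Atpif1. With quantile normalization they were -0.14 for Cox7c, -0.049 for Ndufs7, -0.057 for Ndufs8, -0.029 for Uqcrc1, -0.080 for Uqcrc2, 0.087 for Cox6c, -0.18 for Atp5a1, -0.082 for Atp5b, -0.20 for Atp5c1, 0.043 for Nrf1 and 0.016 for Esrra. Without a count filter Ndufs8 was at -0.0059 and Gabpa at -0.0079, and with the block Cox6c at 0.11. With 1 library left out, signs differed within the ranges -0.20 to 0.94 for Uqcrfs1, -0.48 to 0.34 for Cox6c, -0.065 to 0.022 for Nrf1, -0.066 to 0.024 for Sdha, -0.080 to 0.053 for Cox7b, -0.044 to 0.0093 for Ndufa4, -0.19 to 0.045 for Esrra, -0.094 to 0.14 for Gabpa, -0.046 to 0.19 for Atp5c1, -0.27 to 0.81 for Atpif1, -0.043 to 0.14 for Ndufs7 and -0.097 to 0.13 for Ndufs8.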

Other observations

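Genes known to respond to low oxygen were called in both directions. Of 11 tested genes on the list used here, 5 rose (45.5%), 1 fell (9.09%) and the median log2 fold change was 0.81, beside 16.2% of all tested genes called higher and 15.7% called lower. Adm, the vasodilator peptide adrenomedullin, stood at 10.9, 15.4 and 21.1 FPKM with hemin and 3.07, 3.05 and 3.70 FPKM with vehicle (log2 fold change 2.31 ± 0.26, SE, edgeR adjusted p = 0.00107). P4ha1, a collagen prolyl hydroxylase, stood at 15.9, 18.6 and 16.0 FPKM with hemin and 8.30, 8.25 and 8.74 FPKM with vehicle (log2 fold change 1.05 ± 0.11, edgeR adjusted p = 0.000935). Egln1, an oxygen sensor that marks HIF1A for destruction, fell to 14.7, 13.0 and 12.4 FPKM with hemin, against 29.1, 26.4 and 25.3 FPKM with vehicle (log2 fold change -0.95 ± 0.12, edgeR adjusted p = 0.00164). Bnip3, a mitophagy receptor, and Pdk1, a brake on pyruvate entry into mitochondria, did not pass, with log2 fold changes of 0.30 ± 0.17 and -0.12 ± 0.23.

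Mean levels of listed transcripts differed in direction within Ndufs1 and Ndufv3, and every transcript of Ndufs1 overlapped between groups. The short transcript of Ndufv3 (502 bases) stood at 53.9, 55.8 and 65.6 FPKM with hemin and 47.3, 43.9 and 47.4 FPKM with vehicle, all higher. The long transcript (1594 bases) stood at 9.97, 11.9 and 14.6 FPKM with hemin and 15.8, 12.8 and 14.5 FPKM with vehicle, with overlapping groups. No test was made at the level of transcripts.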
